A study of Mus musculus with 8 samples.

Results

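The Fc gamma receptors and their common gamma chain are described here by 4 genes, Fcgr1, Fcgr3, Fcer1g and Fcgr2b, measured in the hippocampus of mutant and normal mice. The members were chosen by name: every probe set of the array whose single gene symbol is one of these 4 was taken, which gave 7 of the 22626 probe sets that are not controls. Fcgr1, Fcgr3 and Fcer1g had 1 probe set each and Fcgr2b had 4. All 7 lay above the highest value of the absent bacterial controls (3.72) on every array, and none was lost to a filter.

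The study put RNA from the right hippocampus of 8 mice on 1 Affymetrix expression array per animal, 4 mutants and 4 normals. Mutant mice carry the mps allele on both copies of Gusb (mps/mps), which leaves every cell of the body short of the lysosomal enzyme beta-glucuronidase and models mucopolysaccharidosis VII, a lysosomal storage disease. Normal mice are carriers (mps/+), not wild type, and both groups share the labelled strain background B6.C-H2-Kbm1/ByBir. The mutants were females of 38.3 weeks (mutant 1) and 19.6 weeks (mutant 4) and males of 25.6 weeks (mutants 2 and 3), while the normals were females of 38.3 weeks (normal 1) and 14.6 weeks (normal 4) and males of 25.6 weeks (normal 2) and 19.6 weeks (normal 3). The labels name single animals, so n counts animals.

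Fc gamma receptors bind the constant part of immunoglobulin G and are carried by phagocytes, in brain tissue chiefly microglia. Fcgr1 encodes the high-affinity receptor and Fcgr3 a low-affinity receptor, and both are activating. They signal through Fcer1g, the common gamma chain, whose tyrosine motif recruits the kinase Syk once Src family kinases have phosphorylated it. Fcgr2b encodes the inhibitory receptor, which carries its own inhibitory motif and recruits the phosphatase encoded by Inpp5d. The balance of activating and inhibitory receptors sets how a phagocyte responds to antibody-coated material.

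In the RefSeq gene order of GRCm38.p6, Fcgr2b, Fcgr4, Fcgr3 and Fcer1g lie in that order on chromosome 1, with other genes between them, while Fcgr1 lies on chromosome 3. The 250 bases before the annotated start of each member are printed to set the activating receptors beside the inhibitory one. They come from RefSeq's GRCm38.p6 promoter table, which held all 4 genes, and are read along the gene, on the minus strand in each case. The windows are chr3:96293970-96294219 for Fcgr1, chr1:171059404-171059653 for Fcgr3 (the first of its 2 windows in the table), chr1:171234350-171234599 for Fcer1g and chr1:170976072-170976321 for Fcgr2b. Capitals mark GAGGAA on either strand, a motif that the myeloid factor PU.1 can bind.
Fcgr1: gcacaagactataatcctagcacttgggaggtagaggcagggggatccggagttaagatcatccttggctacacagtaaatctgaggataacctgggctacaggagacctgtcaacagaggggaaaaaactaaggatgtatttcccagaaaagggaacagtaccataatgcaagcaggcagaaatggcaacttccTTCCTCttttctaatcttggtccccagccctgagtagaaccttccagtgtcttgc
Fcgr3: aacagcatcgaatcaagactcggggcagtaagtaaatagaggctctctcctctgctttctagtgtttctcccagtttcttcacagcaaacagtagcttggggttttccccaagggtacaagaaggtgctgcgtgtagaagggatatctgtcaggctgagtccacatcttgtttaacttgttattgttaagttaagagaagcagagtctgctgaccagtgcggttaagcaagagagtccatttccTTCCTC
Fcer1g: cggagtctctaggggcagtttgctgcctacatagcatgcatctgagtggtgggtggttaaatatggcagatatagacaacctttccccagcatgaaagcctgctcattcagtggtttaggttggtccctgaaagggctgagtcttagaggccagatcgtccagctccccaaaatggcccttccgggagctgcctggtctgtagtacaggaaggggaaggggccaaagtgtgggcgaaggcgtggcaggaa
Fcgr2b: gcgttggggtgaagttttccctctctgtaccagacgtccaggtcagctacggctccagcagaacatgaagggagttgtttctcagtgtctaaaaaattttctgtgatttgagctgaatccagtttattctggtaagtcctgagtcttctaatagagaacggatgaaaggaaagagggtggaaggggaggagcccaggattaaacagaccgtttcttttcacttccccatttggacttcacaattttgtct
GAGGAA was found once in the Fcgr1 window, beginning 55 bases before the start, and once in the Fcgr3 window, beginning 6 bases before the start, both on the strand opposite to the gene. It was not found in the Fcer1g and Fcgr2b windows. Of all 32851 windows of this length in the table, 23.3% hold it. CACGTG, the core of the site bound by the lysosomal gene regulator Tfeb, was found in none of the 4 and in 6.02% of all windows. On either strand, the letters were matched exactly, and no window was tested for binding.

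The arrays were of similar brightness (medians of 6.09 to 6.17). Normal 1 differed in RNA quality, where the 3 prime control probe sets for actin and Gapdh exceeded the 5 prime ones by 3.58 on average, against 0.22 to 0.75 on the other arrays. Arrays also differed in regional content within both groups: the mean of 9 thalamic and habenular markers ran from 6.64 to 9.63 in mutants and from 6.97 to 9.19 in normals. Of 8 measured hippocampal neuron markers, 7 exceeded the absent controls on at least 1 array. Gusb, the mutated gene, had means of 4.55 ± 0.15 in mutants and 5.95 ± 0.48 in normals on 1 probe set (SD, n = 4 each, limma adjusted p = 0.136), with no overlap. On its other probe set the means were 5.93 ± 0.48 and 5.77 ± 0.53 in mutants and normals, with overlap.

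Among the 7 probe sets, 1 of the inhibitory receptor rose in mutants past an adjusted p of 0.05, 2.94-fold, while the activating receptors and the common chain had higher means without passing. Of all 22626 probe sets, 0.0796% rose at that threshold, 18 in number, and 0.00884% fell, while 0 of the 7 fell. At an unadjusted p under 0.05, 5 of the 7 were higher, against 3.14% of all probe sets. On 5 of the 7, all 4 mutants lay above all 4 normals, against 1.81% of all probe sets. The mean was higher in mutants on 6 of the 7, against 47.1% of all probe sets. These counts include the 4 probe sets of Fcgr2b, which read 1 gene and are not separate members. By the highest-mean probe set of each gene, all mutants lay above all normals for Fcgr3 and Fcer1g, but not for Fcgr1 and Fcgr2b. The share of all genes with that separation was 2.27%. Each change is the mutant mean minus the normal mean of the deposited log2 values, with the moderated standard error and the adjusted p of limma over all probe sets. The permutation p given for single probe sets is two-sided and exact over the 70 arrangements of the 8 arrays, and cannot go below 0.0286. In bulk tissue, more cells of a type and more RNA per cell cannot be told apart.

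Fcgr2b, the inhibitory receptor gene, was read by 4 probe sets that did not give 1 answer. The names of all 4 carry a suffix that marks probes shared between transcripts or with other genes. Which transcripts each one reads, and whether probes for Fcgr2b and Fcgr3 cross-hybridise, was not checked, since probe sequences were not used here, so the Fcgr2b values and their differences from Fcgr3 carry that limit. On probe set 1451941_a_at the log2 values were 6.88, 7.31, 6.62 and 7.36 in mutants 1 to 4, against 5.66, 5.68, 5.19 and 5.41 in normals 1 to 4. The groups did not overlap, and the lowest mutant, number 3, stood well clear of the highest normal, number 2. The change was 1.56 ± 0.20 (SE, n = 4 each), or 2.94-fold with a 95% interval of 2.14 to 4.04 (limma adjusted p = 0.0457, exact permutation p = 0.0286). It ranked at 20 by p among all probe sets. Without any 1 of the 8 animals the change stayed between 1.45 and 1.70, and the limma adjusted p lay between 0.0530 and 0.205, so the call ended each time. It also ended with sex or age as a covariate.

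Probe set 1435477_s_at had the largest difference of the 7. It read 7.22, 7.89, 6.64 and 7.44 in mutants 1 to 4, against 5.61, 5.24, 5.29 and 4.52 in normals 1 to 4. Again mutant 3 was the lowest mutant, and normal 4, the youngest animal, was the lowest normal. The change of 2.14 ± 0.30 (SE, n = 4 each), 4.39-fold with a 95% interval of 2.71 to 7.12, missed the threshold (limma adjusted p = 0.0744).

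The third concordant probe set, 1455332_x_at, read 6.50, 6.78, 5.96 and 6.81 in mutants 1 to 4, against 5.54, 5.27, 5.08 and 4.68 in normals 1 to 4. Its order of mutants was that of 1451941_a_at, number 4 highest and number 3 lowest. The change was 1.37 ± 0.24 (SE, n = 4 each), 2.59-fold with a 95% interval of 1.77 to 3.80 (limma adjusted p = 0.169). Mutants 2 and 4, highest on these 3 probe sets, also had the highest thalamic and habenular marker means (9.63 and 9.53), and mutant 3 had the lowest (6.64). The part of regional content in the order of the mutants was not tested. Without mutants 2 and 4 the change on 1451941_a_at was 1.26 (limma adjusted p = 0.385).

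The remaining Fcgr2b probe set, 1435476_a_at, showed no such difference. It read 7.82, 7.68, 7.46 and 7.82 in mutants 1 to 4, against 7.27, 7.32, 8.40 and 7.91 in normals 1 to 4. Normals 3 and 4 were above every mutant and normals 1 and 2 below every mutant, so the groups overlapped. Its means were 7.70 ± 0.17 in mutants and 7.73 ± 0.54 in normals (SD, n = 4 each). The change was -0.03 ± 0.25 (SE), with a 95% interval of -0.61 to 0.55 (limma adjusted p = 0.993). This probe set has the highest mean of the 4 over all arrays, 7.71, and it shares the listed source accession of 1435477_s_at and 1455332_x_at. When the 4 probe sets were averaged and all genes treated alike, Fcgr2b was higher by 1.26 (limma adjusted p = 0.0487 over 12393 genes).

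**Figure D1:**
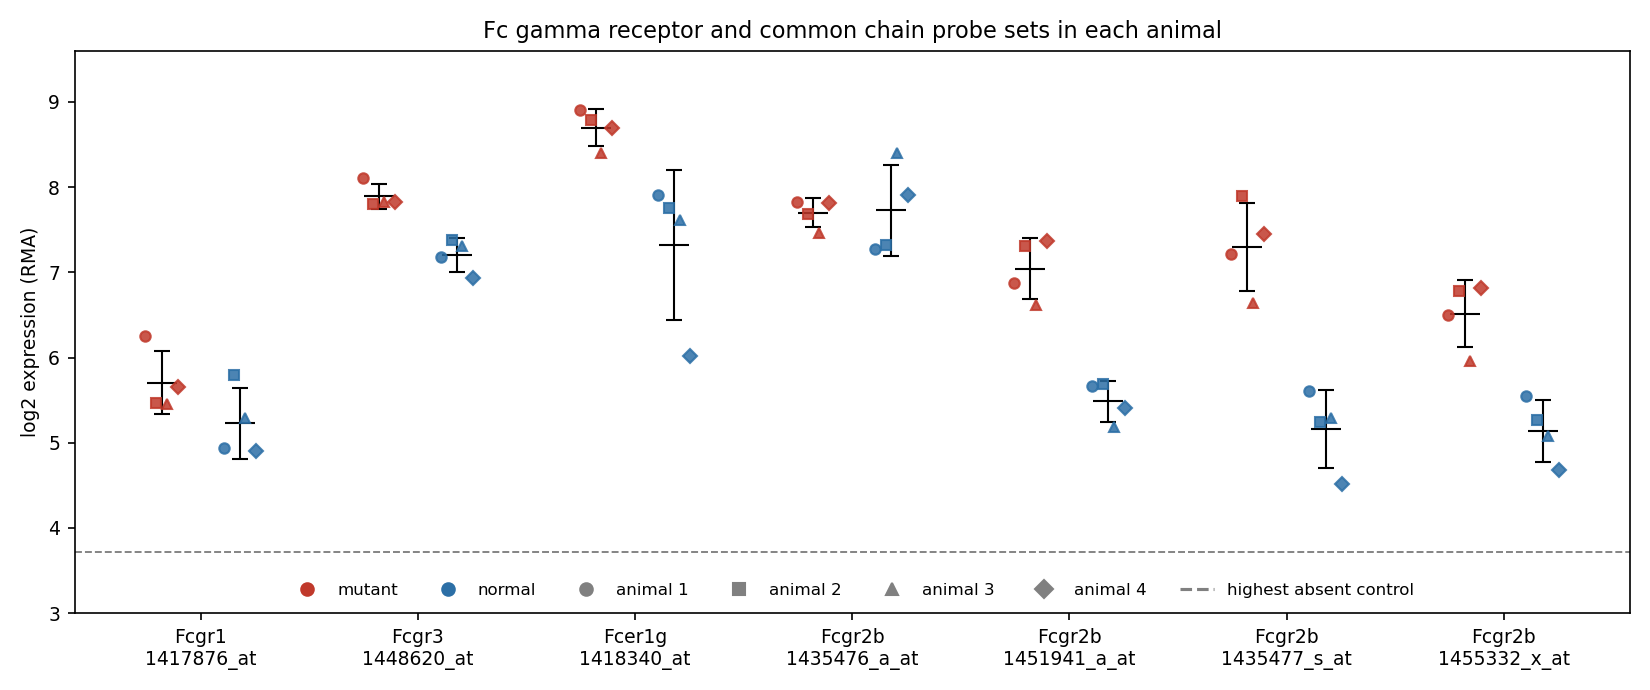
Log2 expression (RMA, vertical axis) of the 7 member probe sets, with a symbol per animal, mutants in red on the left and normals in blue on the right of each pair, and black bars for the mean and SD of 4 animals. The groups are apart on Fcgr3, Fcer1g and 3 Fcgr2b probe sets, and overlap on Fcgr1 and on Fcgr2b 1435476_a_at. The dashed line is the highest absent control, 3.72.

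Fcgr3, the low-affinity activating receptor gene, was higher in all mutants by a small amount. Its probe set read 8.10, 7.80, 7.83 and 7.82 in mutants 1 to 4, against 7.18, 7.38, 7.31 and 6.94 in normals 1 to 4. Mutants 2 to 4 lay within a few hundredths of each other, and mutant 1, a 38.3-week female, stood above them. The change was 0.69 ± 0.13 (SE, n = 4 each), 1.61-fold with a 95% interval of 1.31 to 1.98 (limma adjusted p = 0.225, exact permutation p = 0.0286).

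Fcer1g, the common chain through which both activating receptors signal, had the largest difference outside Fcgr2b. Values were 8.90, 8.79, 8.40 and 8.69 in mutants 1 to 4, against 7.90, 7.76, 7.61 and 6.01 in normals 1 to 4. The groups did not overlap, but normal 4 stood far below the other normals. The change was 1.37 ± 0.39 (SE, n = 4 each), 2.59-fold with a 95% interval of 1.39 to 4.83 (limma adjusted p = 0.585). Without normal 4 it was 0.94 (limma adjusted p = 0.209). Normal 4, aged 14.6 weeks, also had the lowest mean of the general microglia and macrophage markers (6.74, against 7.03 to 7.34 in the other normals). The part of age or of microglial content in its low value was not tested.

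Fcgr1, the high-affinity receptor gene, did not separate the groups. It read 6.25, 5.47, 5.45 and 5.65 in mutants 1 to 4, against 4.94, 5.80, 5.29 and 4.90 in normals 1 to 4. Normal 2 lay above 3 of the 4 mutants. The change was 0.48 ± 0.25 (SE, n = 4 each), 1.39-fold with a 95% interval of 0.934 to 2.07 (limma adjusted p = 0.893, exact permutation p = 0.143). It was 0.29 without mutant 1.

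Animals of the same age differed in the same direction for Fcgr3, Fcer1g and Fcgr2b on 1451941_a_at. At 19.6 weeks, mutant 4 exceeded normal 3, of the other sex, by 0.37 for Fcgr1, 0.51 for Fcgr3, 1.08 for Fcer1g and 2.18 for Fcgr2b on 1451941_a_at. At 25.6 weeks, the mean of mutants 2 and 3 was above normal 2 by 0.44 for Fcgr3, 0.83 for Fcer1g and 1.28 for Fcgr2b on 1451941_a_at, but differed by -0.34 for Fcgr1. At 38.3 weeks, mutant 1 exceeded normal 1 by 1.31 for Fcgr1, 0.92 for Fcgr3, 1.00 for Fcer1g and 1.21 for Fcgr2b on 1451941_a_at. Fcgr2b on 1435476_a_at had the differences -0.58, 0.25 and 0.56 at these ages. Each age holds 1 or 2 animals a group, so these are values without a test. Normal 1, the only normal of 38.3 weeks, is also the array that differed in RNA quality (3 prime minus 5 prime of 3.58).

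Female and male mice were compared by the interaction of genotype and sex, with 2 animals in each cell. The female normals include normal 1, the array that differed in RNA quality. Fcgr1 differed most: the mutant minus normal change was 1.03 in females and -0.08 in males. The difference between these changes, 1.12 ± 0.36 (SE, 95% interval 0.24 to 1.99), did not pass (limma adjusted p = 0.407, unadjusted p = 0.0203). At an unadjusted p under 0.05, 10.5% of all probe sets passed this test, and at an adjusted p under 0.05 limma called 0 of 22626. Fcgr2b on 1451941_a_at changed by 1.58 in females and 1.53 in males, a difference of 0.05 with a 95% interval of -1.02 to 1.13. For Fcgr3 the changes were 0.90 in females and 0.47 in males, and for Fcer1g 1.84 and 0.91. Neither difference passed (limma adjusted p = 0.559 for Fcgr3 and 0.708 for Fcer1g).

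Other Fc receptors measured on the array, 11 genes, had 0 members past the threshold in either direction, against 0.0968% of all genes that rose and 0.00807% that fell. At an unadjusted p under 0.05 limma passed 1, Fcrls, and 3.14% of all probe sets were higher at that p. Fcrls, an Fc receptor-like gene of microglia, was at 8.13 ± 0.16 in mutants and 7.24 ± 0.29 in normals (SD, n = 4 each), a difference of 0.89 without overlap (limma adjusted p = 0.200). Fcgr4, the activating receptor gene that lies between Fcgr2b and Fcgr3, was at 4.63 ± 0.09 in mutants and 4.57 ± 0.11 in normals (SD, n = 4 each). Its difference of 0.06 had a 95% interval of -0.18 to 0.29. Fcgrt, the gene of the neonatal receptor that carries immunoglobulin G across cells, differed by 0.07. Trim21, the cytosolic antibody receptor gene, differed by 0.11 on its highest-mean probe set and by -0.04 on another. Fcrl1, an Fc receptor-like gene of B cells, differed by 0.28 on its highest-mean probe set. Its other probe set differed by -0.02 and never exceeded the absent controls. Fcer1a and Ms4a2, the other chains of the immunoglobulin E receptor that also uses the common chain, never exceeded the absent controls, and nor did Fcer2a, Fcamr, Pigr and Fcrla.

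**Figure D2:**
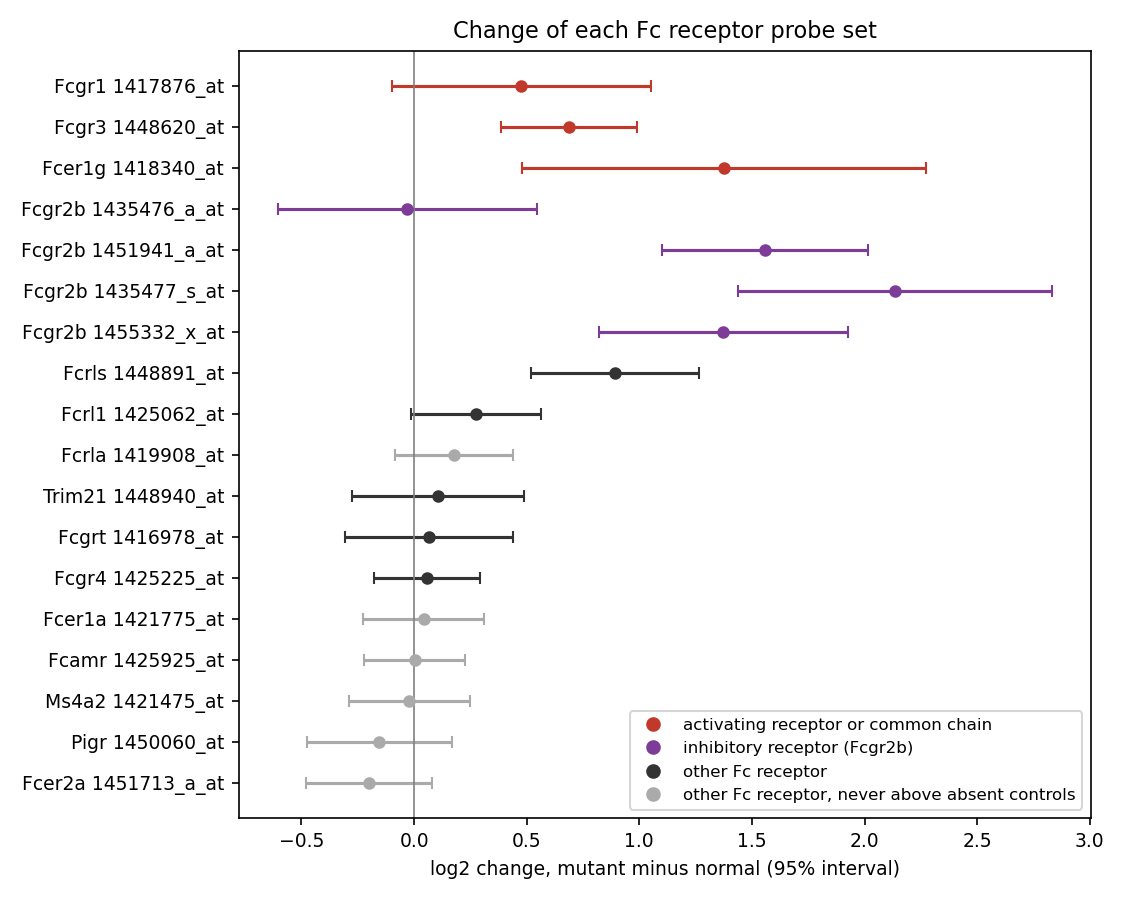
Log2 change, mutant minus normal (horizontal axis, point) with its 95% interval (bar), for the 7 member probe sets and for 11 other Fc receptor genes by their highest-mean probe set. Fcgr2b reaches 2.14 on 1 probe set and stays at -0.03 on another, Fcrls is at 0.89, and genes in grey never rose above the absent controls.

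Whether activating and inhibitory receptors differed in their change was asked within each array, as the activating gene minus Fcgr2b, compared between mutants and normals. The answer depended on the Fcgr2b probe set. With the highest-mean probe set, 1435476_a_at, taken by the rule used for all genes, the difference was larger in mutants by 0.51 for Fcgr1, 0.72 for Fcgr3 and 1.40 for Fcer1g. None passed over the 3 pairs (exact permutation, adjusted p = 0.229, 0.0857 and 0.0857).

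Each of the other 3 Fcgr2b probe sets turned the direction for both activating receptors. For Fcgr3 minus Fcgr2b on 1435477_s_at the within-array values were 0.88, -0.09, 1.19 and 0.38 in mutants 1 to 4, against 1.58, 2.14, 2.02 and 2.42 in normals 1 to 4. All mutants lay below all normals, with no overlap. The mutant minus normal difference was -1.45 (exact permutation, adjusted p = 0.0429 over 3 pairs). For Fcgr1 minus Fcgr2b on the same probe set it was -1.66 (exact permutation, adjusted p = 0.0429 over 3 pairs), and again all mutants lay below all normals.

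On 1451941_a_at the differences were -0.87 for Fcgr3, again without overlap, and -1.08 for Fcgr1 (exact permutation, adjusted p = 0.0857 over 3 pairs for each). On 1455332_x_at they were -0.69 for Fcgr3 and -0.90 for Fcgr1 (exact permutation, adjusted p = 0.129 over 3 pairs for each). For the common chain, Fcer1g minus Fcgr2b differed by -0.18, -0.76 and 0.0022 on 1451941_a_at, 1435477_s_at and 1455332_x_at. Over all 12 pairings of 3 genes with 4 probe sets, the smallest adjusted p was 0.0857 (exact permutation). Levels of different probe sets are not comparable, so only changes are set side by side. A gap below 0 in 1 panel therefore does not mean that the inhibitory receptor was the more abundant.

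**Figure D3:**
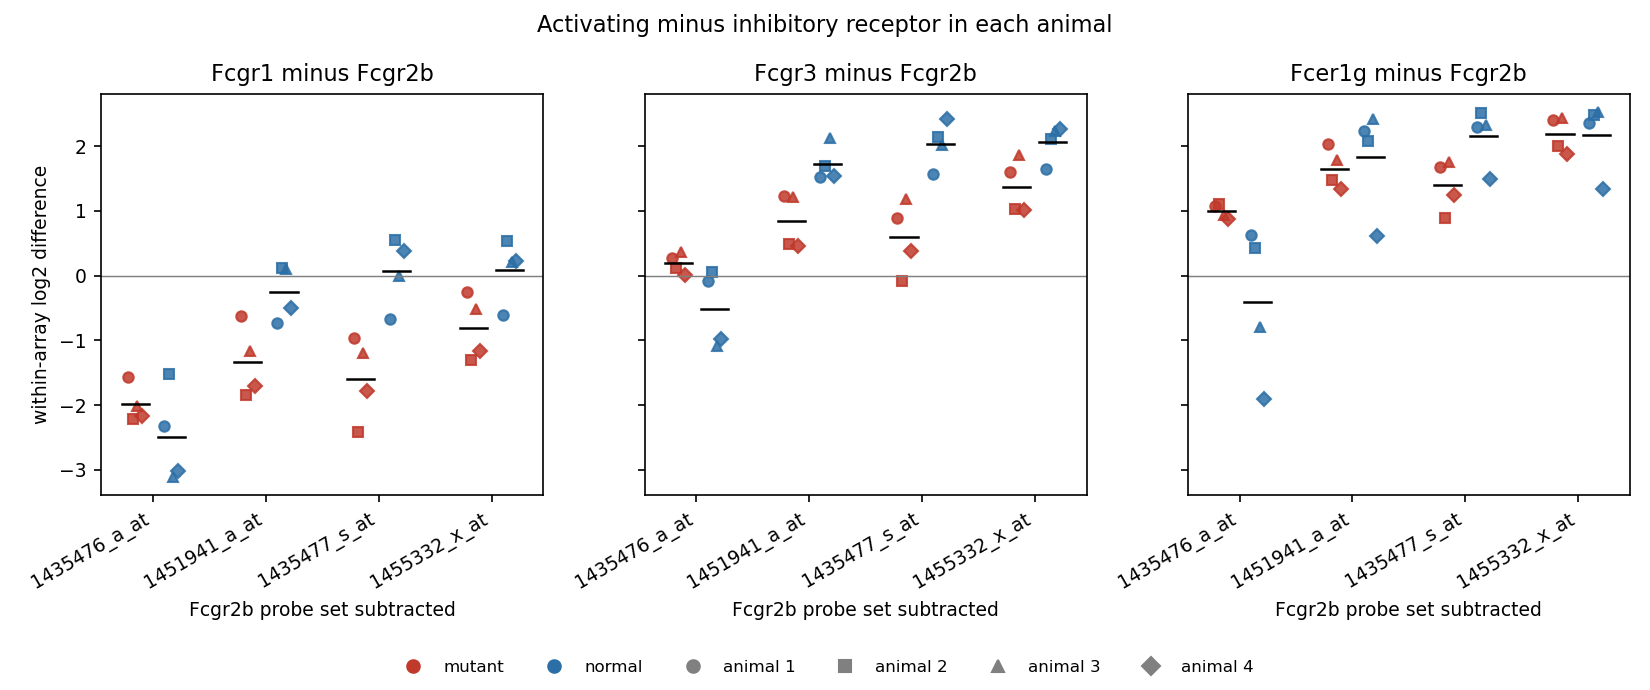
Within-array log2 difference of Fcgr1, Fcgr3 or Fcer1g minus Fcgr2b (vertical axis) for each Fcgr2b probe set (horizontal axis), a symbol per animal, mutants in red on the left and normals in blue on the right, with black lines for means of 4 animals. With 1435476_a_at the mutants tend to lie higher, and with the other 3 probe sets the Fcgr1 and Fcgr3 differences lie lower in mutants.

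The general microglia and macrophage markers were higher in mutants as a list. Of 20 measured, 17 had higher means in mutants, 3 rose past the threshold and 0 fell, with a median change of 0.82, against a median of 0.01 over all 12393 genes, of which 0.0968% rose, 0.00807% fell and 52.5% had a higher mean. On 13 of the 20 all mutants lay above all normals, against 2.27% of all genes. The markers averaged 7.91 to 8.11 in mutant arrays and 6.74 to 7.34 in normal arrays. Cd68, Mpeg1 and Adgre1, named after their values were seen, were the 3 that rose, by 2.08, 2.07 and 1.16 (limma adjusted p = 0.0367, 0.00263 and 0.0306). The 3 with lower means, also named after their values were seen, were Csf1r (-0.19), Cx3cr1 (-0.23) and Itgam (-0.37), all with overlap. Among mutants the list mean was highest in mutant 1 (8.11), while the 3 concordant Fcgr2b probe sets were highest in mutants 2 and 4. The part of microglial content in the receptors' changes was not tested. Homeostatic microglia markers did not separate the groups as a list, with means of 6.69 to 7.13 in mutants and 6.78 to 7.22 in normals and a median change of -0.21 over 10 genes. Selplg, a selectin ligand gene of that list named after its values were seen, was at 6.49 ± 0.11 in mutants and 7.40 ± 0.24 in normals (SD, n = 4 each), a difference of -0.91 with all mutants lower (limma adjusted p = 0.0952), and Fcrls, which is also on it, was higher in all mutants.

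Set against the general microglial mean of the same array, Fcgr2b stayed higher in mutants on 2 probe sets. On 1435477_s_at the value minus that mean spanned -1.27 to -0.02 in mutants and -2.21 to -1.42 in normals, and on 1451941_a_at it spanned -1.29 to -0.57 in mutants and -2.16 to -1.33 in normals. Neither pair of ranges overlapped. Fcgr3 minus that mean spanned -0.11 to -0.01 in mutants and -0.03 to 0.20 in normals, a difference of -0.20 with overlap. Fcer1g differed by 0.49 and Fcgr1 by -0.41 on this measure, both with overlap. Fcgr2b on 1435476_a_at was lower in all mutants, at -0.45 to -0.11 against 0.11 to 1.18 in normals. On 1455332_x_at the difference was 0.49 with overlap. These are values without a test.

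Markers of other immune cells and of endothelium overlapped between the groups as list means, while single genes did not always. B and plasma cell markers had a mean of 3.84 to 4.16 in mutants and 3.95 to 4.37 in normals over 6 genes, with Cd79b and Ms4a1 never above the absent controls. Mast cell and basophil markers had a mean of 4.01 to 4.40 in mutants and 4.17 to 4.27 in normals over 10 genes, with Fcer1a, Mcpt4 and Ms4a2 never above those controls. T and natural killer cell markers, 12 genes, averaged 4.10 to 4.25 in mutants and 4.19 to 4.40 in normals, with Cd3g, Gzma and Gzmb at control level. Cd4 was at 5.53 ± 0.07 in mutants and 6.32 ± 0.59 in normals (SD, n = 4 each), a difference of -0.80 with all mutants lower (limma adjusted p = 0.739). Neutrophil markers averaged 3.61 to 4.21 in mutants and 3.51 to 4.84 in normals over 9 genes, with Elane at control level. Border macrophage and monocyte markers overlapped too (4.26 to 4.61 in mutants, 3.85 to 4.53 in normals, 10 genes), with Ccr2 and Plac8 at control level. Of these 10, 1 gene, Ms4a7, passed the threshold (a change of 1.88, limma adjusted p = 0.0367), where 0.0968% of all genes rose and 0.00807% fell. Endothelial markers were at 6.15 to 6.57 in mutants and 5.71 to 6.43 in normals. All 10 means were higher in mutants, against 52.5% of all genes, and 0 passed the threshold, against the same shares of all genes. Dendritic cell markers were at 4.56 to 4.75 in mutants and 4.45 to 4.61 in normals, 9 genes with Ccr7 and Xcr1 at control level. Itgax, an integrin gene of dendritic cells that macrophages and microglia can also express, was at 5.83 ± 0.40 in mutants and 4.81 ± 0.08 in normals (SD, n = 4 each), a difference of 1.02 with all mutants higher (limma adjusted p = 0.215). Ms4a7, Cd4 and Itgax were named after their values were seen. Over all genes, all mutants lay above all normals for 2.27% and below all normals for 1.61%. The part of these cells in the receptor values was not tested.

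Markers of other tissue content differed between arrays too. Astrocyte markers averaged 9.44 to 9.49 in mutants and 8.80 to 9.12 in normals, and oligodendrocyte markers 9.23 to 10.0 in mutants and 10.3 to 10.8 in normals, neither with overlap. Choroid plexus markers were at 5.92 to 8.73 in mutants and 5.01 to 6.03 in normals, with mutants 1 and 3 highest. Hippocampal neuron markers were at 4.98 to 7.04 in mutants and 5.07 to 5.85 in normals, and striatal markers at 6.18 to 7.09 in mutants and 6.87 to 10.1 in normals. Their part in the receptor values was not tested.

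No ligand gene passed the threshold, which 0.0968% of all genes passed upward and 0.00807% downward. Of 13 measured immunoglobulin, pentraxin and B cell genes, 5 had higher and 8 lower means in mutants, with 0 past the threshold in either direction and a median change of -0.05. Ighm, the heavy chain of immunoglobulin M, differed by -1.09 (limma adjusted p = 0.809), at 6.46 ± 0.48 in mutants and 7.55 ± 0.87 in normals (SD, n = 4 each) with overlap. Jchain, which joins immunoglobulin M and A chains, differed by 0.43 near the absent controls (3.69 ± 0.16 in mutants and 3.26 ± 0.34 in normals). Ighg3, the only heavy chain gene of immunoglobulin G that was measured, stood at 5.39 ± 0.10 in mutants and 5.54 ± 0.18 in normals (SD, n = 4 each). Ighg1, Ighg2b and Ighg2c were listed but not measured.

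Receptors and adaptors of the same signalling family also gave 0 calls, where 0.0968% of all genes rose and 0.00807% fell. The largest differences were in Tyrobp and Trem2, which are markers of the general microglia list too. Of 11 measured genes that pair with the common chain or with Tyrobp, 7 had higher means, 0 passed in either direction, and the median was 0.16. Tyrobp, the adaptor that resembles the common chain, was at 9.70 ± 0.33 in mutants and 7.55 ± 1.15 in normals (SD, n = 4 each), a difference of 2.16 (limma adjusted p = 0.416) without overlap. Trem2, a lipid receptor gene that signals through Tyrobp, differed by 1.52 (limma adjusted p = 0.150). Hcst, another adaptor gene, differed by 0.32 (limma adjusted p = 0.809).

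Downstream kinases and adaptors gave 0 calls as well, against 0.0968% of all genes that rose and 0.00807% that fell. With shares that low, 0 calls do not set a short list apart from all genes. A higher mean was found for 52.5% of all genes. Of 17 activating genes, 11 had higher means, 0 passed in either direction, and the median was 0.10. Btk, a kinase gene, differed by 0.29 without overlap (limma adjusted p = 0.800), while Syk, the kinase that binds the common chain, differed by 0.20 and Blnk by 0.57. Of 12 inhibitory genes, 10 had higher means, 0 passed in either direction, and the median was 0.10. Cd22, an inhibitory lectin receptor gene, was at 5.32 ± 0.33 in mutants and 4.56 ± 0.22 in normals (SD, n = 4 each), a difference of 0.76 without overlap (limma adjusted p = 0.429). Inpp5d, which encodes the phosphatase recruited by Fcgr2b, differed by 0.07 with a 95% interval of -0.44 to 0.58. Pirb, an inhibitory receptor gene, differed by 0.26 (limma adjusted p = 0.850), Ptpn6, a phosphatase gene, by 0.03, and Dok2, an adaptor gene, by -0.24 with all mutants below all normals.

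Genes of the phagocytic response had higher means in 14 of 15 cases, against 52.5% of all genes. The median change was 0.14, against 0.01 over all genes. In either direction 0 passed the threshold, where 0.0968% of all genes rose and 0.00807% fell. Cyba, which encodes a chain of the phagocyte oxidase, had the largest difference, 1.39 (limma adjusted p = 0.313), and Lcp1, an actin-bundling protein gene, was next at 0.80 (limma adjusted p = 0.404). Cybb, the catalytic chain of the same oxidase, never exceeded the absent controls, and nor did Hcls1. Ncf1 differed by 0.42.

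**Figure D4:**
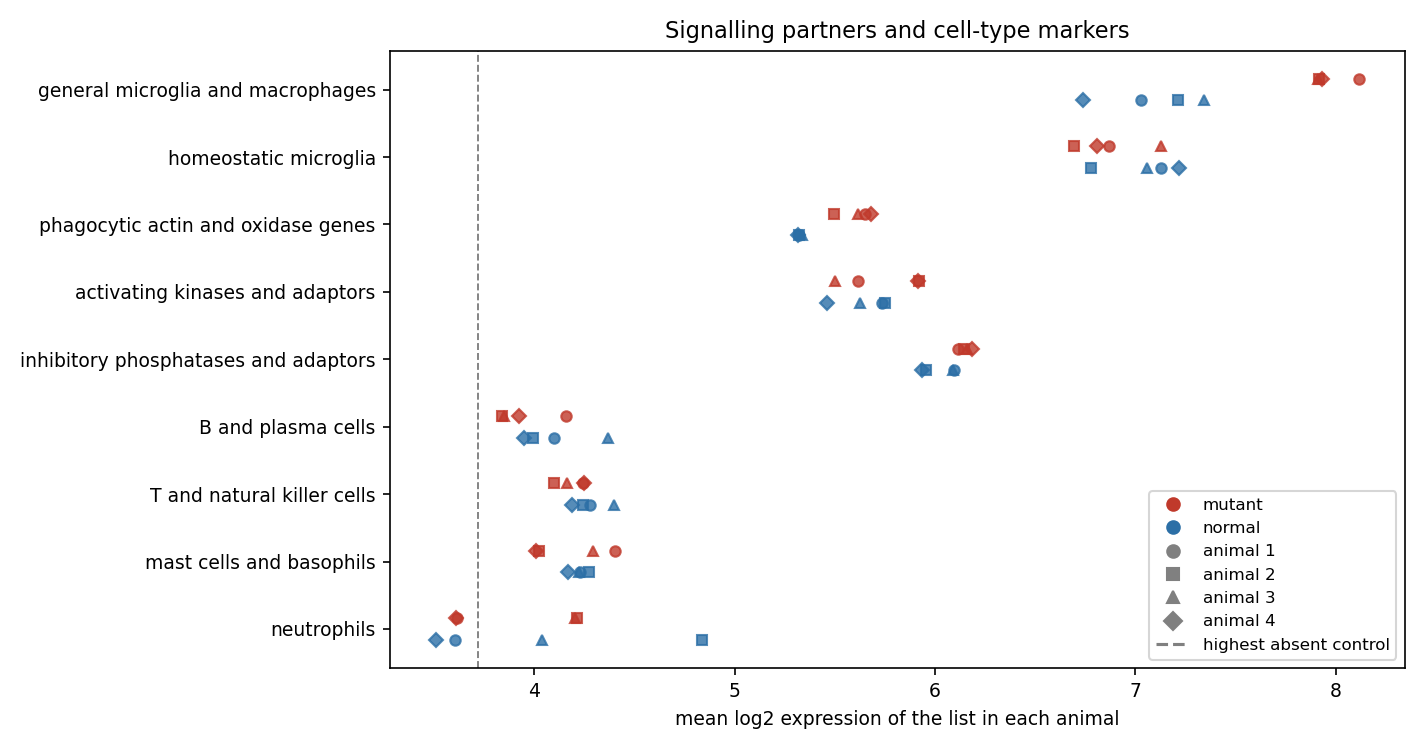
Mean log2 expression (horizontal axis) of 9 gene lists in each animal, mutants in red above normals in blue, with the highest absent control as a dashed line at 3.72. The general microglia and macrophage list is 7.91 to 8.11 in mutants against 6.74 to 7.34 in normals, and the lymphocyte, mast cell and neutrophil lists lie near 4 with overlap.

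Genes other than the members were ranked, out of 12393, by likeness of pattern to each member, as Pearson's r over the 8 arrays. No member could therefore appear among the nearest genes. Fcer1g was most like Tyrobp (0.996), B2m (0.983) and Zbtb11os1 (0.976). Tyrobp was also first over the 8 deviations from the group means (0.998), followed by Ndufb10 (0.998) and Smdt1 (0.997). These deviations include the low Fcer1g value of normal 4 (6.01, against 7.61 to 7.90 in the other normals). The part of that animal in these r values was not tested. Fcgr3 was most like Lyz1 (0.979), C1qc (0.978) and Lyz2 (0.977), and over deviations most like Mrpl40 (0.982), Dad1 (0.977) and 3110040N11Rik (0.974). Fcgr2b on 1451941_a_at followed Il10rb (0.976), Cst7 (0.976) and Gpnmb (0.973), and on 1435477_s_at Ms4a6b (0.994), Tgfb1 (0.991) and Ms4a7 (0.989). On 1455332_x_at the nearest were Tgfb1 (0.995), Lgals3 (0.986) and Lag3 (0.983), and on 1435476_a_at Tbrg1 (0.984), H2-M9 (0.953) and Lats1 (0.946). Over deviations, Fcgr2b was most like Slc41a3 (0.991), Mab21l2 (0.986) and Crip3 (0.982) on 1451941_a_at, Rbm19 (0.983), Trav12n-1 (0.980) and Clasrp (0.978) on 1435477_s_at, Mfsd11 (0.990), Traf2 (0.987) and Rit1 (0.985) on 1455332_x_at, and Tbrg1 (0.984), Kif5a (0.965) and Lats1 (0.964) on 1435476_a_at. Fcgr1 was most like Tmem243 (0.988), Antkmt (0.975) and Chchd6 (0.975), and over deviations like Tm2d3 (0.989), Pomc (0.988) and Acpp (0.987). The values over 8 arrays share the group difference and each array's tissue content, and serve as description.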

How the data were processed

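RNA was measured with 1 Affymetrix array per animal. The deposited table gives each probe set on a log2 scale. RMA and GCOS 1.4 are the tools named per the submitters' processing notes. Genome build and probe alignment are not given in the sources used here, and no scanner files were analysed, so background correction could not be repeated. RMA puts all arrays on 1 distribution, so differences are relative to the whole array. Of 22690 rows, 64 were controls, 20380 carried 1 gene symbol, 691 several and 1555 none in GEO's platform annotation. The absent controls are 27 probe sets for bacterial transcripts.

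All 22626 probe sets were fitted by lmFit and eBayes (limma 3.58.1, R 4.3.3), 4 mutants against 4 normals, with Benjamini-Hochberg adjustment over all of them and a threshold of 0.05. Where a gene is given by 1 value, its probe set with the highest mean over 8 arrays was used (12393 genes). Within-array differences were compared with two-sided exact permutation tests. No dim probe set was removed. Precision is limited by having 4 animals a group, since intensities carry no count. The members, lists and tests were chosen with earlier results of these data known. Named are all members, all other Fc receptors, Gusb, and the 3 members of each signalling or ligand list with the smallest p. Also named are the 3 genes most like each member, and markers, ligand genes and phagocytic genes at control level. Inpp5d, Ptpn6, Cybb, Hcls1, the ligand genes at control level and the single marker genes given with a change were chosen after their values were seen. On simulated data for this comparison (22626 probe sets), limma recovered 49% of 100 changes of 1 and 94% of 100 changes of 2 on the log2 scale, with 10 false calls. The simulated noise was independent for each probe set, without differences between arrays in tissue content, RNA quality, sex or age. Recovery on the real arrays can therefore differ from these shares. Alternatives were gene-level values, probe set filters, normalization, variance moderation, array weights, sex, age or animal number series as covariates, and leaving out animals. The replicate number, given here in accession order, was added as a block after the data were seen.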

Additional observations from a re-analysis of the deposited data

Results flagged for a closer look

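Chance alone marks about 1 in 20 groups of 4 as holding an outlying animal, and 3 of the 38 groups tested were marked. Fcer1g in normal 4 (6.01) lay far below the other normals (7.61 to 7.90), and the change of Fcer1g was 0.94 without that animal. The within-array difference of Fcer1g minus Fcgr2b on 1455332_x_at in the same animal (1.34) was also low, and it contains that Fcer1g value. Fcgr3 in mutant 1 (8.10) lay above the other mutants (7.80 to 7.83), and without that animal the change of Fcgr3 was 0.62.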

How the results depend on the processing

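The changes of Fcgr1 (0.29 to 0.66), Fcgr3 (0.59 to 0.76) and Fcer1g (0.94 to 1.81) kept their direction and did not pass under 24 alternatives each. The count of member probe sets that rose, 1, was 0 without any 1 animal, after quantile normalization again or median centring, with sex, age, both or animal number series as covariates, and without mutants 1 and 3, mutants 2 and 4 or normals 1 and 3. It was 2 without the 40% lowest probe sets, 3 with array weights, and 5 by exact permutation at its smallest unadjusted p. Why array weights moved the count was not tested. Fcgr2b on 1451941_a_at stayed between 1.26 and 1.85 in 22 alternatives. With the replicate number as a block its change was 1.56 (limma adjusted p = 0.206), and the member count and the counts over all probe sets were 0, where the lone call is lost. The numbers were given in accession order, but each joins animals of 1 sex, and numbers 1 and 2 also join animals of 1 age. For numbers 1 and 2 the animal numbers in the sample titles are consecutive as well. No label used here states a shared litter or batch. Over all probe sets, the deviations of same-numbered animals from their group means correlated at -0.27, 0.04, 0.33 and -0.16 for numbers 1 to 4. Animals of different number correlated at -0.40 to 0.40. With so wide a spread, these values cannot decide whether the numbers pair the animals.

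The mean of all 4 Fcgr2b probe sets, which is not a value of 1435476_a_at alone, changed by 1.26. Fcgr2b on 1435476_a_at, at -0.03, turned to 0.031 with age and 0.034 with sex and age as covariates. It was 0.023 without mutants 1 and 3 and 0.079 without normals 1 and 3. Leaving out 1 animal gave -0.18 to 0.20. The difference of Fcgr1 minus Fcgr2b, 0.51, was -1.08, -1.66 and -0.90 on 1451941_a_at, 1435477_s_at and 1455332_x_at and -0.78 with their mean including 1435476_a_at. Fcgr3 minus Fcgr2b, 0.72, was -0.87, -1.45, -0.69 and -0.57 in the same order. Fcer1g minus Fcgr2b, 1.40, was -0.18 and -0.76 on the first 2, 0.0022 on the third and 0.12 with the mean. Without 1 animal these differences ran from 0.30 to 0.83, 0.53 to 0.91 and 0.91 to 1.75. Over all probe sets, 18 higher and 2 lower calls became 0 to 50 higher and 0 to 12 lower: 50 and 10 with array weights, 7 and 0 with sex, 10 and 0 with age, 6 and 0 with both, and 6 to 15 and 0 to 12 without 1 animal. Without mutants 1 and 3, mutants 2 and 4 or normals 1 and 3 they were 3, 5 and 6 higher and 0 lower. Scaling changed no direction of a member.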
